A study of Mus musculus with 7 samples.

Results

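The 39 protein-coding *Hox* genes of the mouse were examined in ChIP-seq peaks of the cerebellar granule lineage. They are the genes of GENCODE M21 whose symbols are *Hoxa*, *Hoxb*, *Hoxc* or *Hoxd* with a number, out of 21951 protein-coding genes. On mm10 they form HoxA with 11 genes (chr6:52155590-52260880), HoxB with 10 genes (chr11:96194316-96368256), HoxC with 9 genes (chr15:102921103-103036852) and HoxD with 9 genes (chr2:74668310-74765142). Each cluster and 50 kb on either side of it was searched for peaks, and 0 of 31400 H3K27ac peaks, 0 of 1946 Chd7 peaks from WT cells and 0 of 96 Chd7 peaks from *Chd7*-deficient cells had their centre there. The regions did hold Top2b peaks, which had played no part in choosing them.

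The study profiled mice at P7 of the strain labelled C57BL/6, which the study's methods give as C57BL/6N. Granule neuron progenitors (GNPs) were isolated fresh, without separating male and female pups, and granule neurons (CGNs) were grown from them for 48 h without SHH. H3K27ac and Chd7 were measured in WT GNPs, Chd7 also in *Chd7*-deficient GNPs, and Top2b in WT and *Chd7*-deficient CGNs. Each of these 5 groups is 1 library, so no difference between them can be set against the variation between animals, and no test between groups was possible. The labels call the mutant cells only Chd7 KO. In the study's methods they are Atoh1-Cre::Chd7 f/f, with Chd7 f/f as WT. *Atoh1-Cre* is active in the granule lineage, and the study describes Chd7 protein that remained in the posterior lobe of such mice, so cells that keep Chd7 may be in the mutant preparation. The input libraries were not used here, and the deposited tables hold positions and peak statistics but no read totals.

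*Hox* genes encode homeodomain transcription factors that give cells their position along the head-to-tail axis. Within a cluster the order of the genes on the chromosome follows the order of their expression domains, and the low-numbered paralogues reach furthest forward in the embryo. Granule progenitors arise from the rhombic lip of the first rhombomere, which lies in front of the *Hox* expression domains. Acetylation of histone H3 at lysine 27 (H3K27ac) marks active promoters and enhancers, and Chd7 is an ATP-dependent chromatin remodeller. Top2b is a type II DNA topoisomerase, the only one of that type that the study describes in CGNs. Silent *Hox* clusters are usually held by Polycomb complexes, which place methyl groups on the same lysine, a mark not measured in these libraries. In the following, anterior is the end of a cluster with the low-numbered genes and posterior the end with the group 13 genes.

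Top2b peaks called at the same place in both genotypes were found at 6 sites of the *Hox* regions, and these are the positions there that 2 separate libraries share. From each, 120 bases inside both peaks and outside annotated UTRs are shown from the plus strand of GRCm38 (mm10), with every CG dinucleotide in capitals.
Hoxa2, coding sequence, chr6:52164355-52164474: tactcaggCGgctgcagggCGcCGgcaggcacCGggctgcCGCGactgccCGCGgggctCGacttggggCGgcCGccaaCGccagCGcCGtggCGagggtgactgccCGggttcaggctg
Hoxa7, directly upstream of the gene start, chr6:52221855-52221974: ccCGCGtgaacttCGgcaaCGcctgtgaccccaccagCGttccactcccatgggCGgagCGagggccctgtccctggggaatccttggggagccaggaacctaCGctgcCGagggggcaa
Hoxa13, intron, chr6:52259184-52259303: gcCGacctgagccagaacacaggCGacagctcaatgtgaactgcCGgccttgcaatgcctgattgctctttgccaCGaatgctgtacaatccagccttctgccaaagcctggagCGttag
Hoxb8, intergenic and upstream, chr11:96278777-96278896: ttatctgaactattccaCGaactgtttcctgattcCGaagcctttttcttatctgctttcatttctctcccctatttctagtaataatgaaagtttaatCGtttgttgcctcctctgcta
Hoxb4, intergenic and upstream, chr11:96311641-96311760: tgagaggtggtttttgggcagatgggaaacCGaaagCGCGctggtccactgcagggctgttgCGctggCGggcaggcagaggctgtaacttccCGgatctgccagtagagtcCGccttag
Hoxc8, upstream and within the long Hoxc5 record, chr15:102987581-102987700: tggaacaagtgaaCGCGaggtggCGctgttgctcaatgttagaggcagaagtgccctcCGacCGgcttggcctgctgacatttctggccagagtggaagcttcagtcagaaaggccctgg
The stretch in *Hoxa2* held 16 CG dinucleotides, that at *Hoxa7* 9, and that upstream of *Hoxb8* 3.

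The nearest place to any *Hox* gene with both H3K27ac and Chd7 is the start of *Mtx2*, a mitochondrial outer membrane gene beyond the anterior end of HoxD. It is shown for comparison with the *Hox* sites, from the same strand and with CG in capitals.
Mtx2, chr2:74826037-74826156: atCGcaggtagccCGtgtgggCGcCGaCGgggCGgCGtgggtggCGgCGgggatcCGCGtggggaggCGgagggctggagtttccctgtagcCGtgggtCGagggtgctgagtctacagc
These 120 bases held 14 CG dinucleotides, within the range of the *Hox* sites.

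None of the 39 *Hox* starts had an H3K27ac peak within 1 kb in WT GNPs. The share of 0% has a 95% Wilson interval up to 8.97%, which covers counting error over genes only, and 42.9% of all protein-coding genes had such a peak. Widening the window to 5 kb left 0 of 39 beside 46.7% of all genes, and taking the start of any annotated transcript left 0 of 39 beside 46.5%. Both counts were fixed by the 0 peaks in the regions and are no separate result. Genes of 1 cluster lie close together and share their surroundings, so the 39 genes are not independent of each other.

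CG-dense promoters mostly carried the mark in these cells. Taken at the start of the gene record, about as many *Hox* promoters as promoters in general are of that kind. In the 300 bases from 250 before to 50 after the start, *Hox* genes had a median of 16 CG dinucleotides, from 3 at *Hoxb2* to 47 at *Hoxa4*, and all protein-coding genes a median of 11. By a CpG observed-to-expected ratio of at least 0.6 and a GC content of at least 50%, 19 of 39 *Hox* promoters (48.7%) and 41.3% of all promoters were CpG-rich. Among CpG-rich promoters 75.4% of all genes had H3K27ac within 1 kb, and 0 of the 19 *Hox* genes did (Wilson interval up to 16.8%). *Hoxa4*, *Hoxa13* and *Hoxd13*, with 47, 45 and 37 CG dinucleotides, were among the 19. Some *Hox* promoters were taken at the start of a long record. That of *Hoxa3* begins far upstream, that of *Hoxc5* beside the start of *Hoxc10*, and those of *Hoxd3* and *Hoxd4* almost together. *Hoxa3*, *Hoxc5*, *Hoxd3* and *Hoxd4* were not counted as CpG-rich. Promoters at other transcript starts were not classed, so the share of 48.7% holds for record starts only.

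Distances to the nearest H3K27ac peak were long at every member. From the gene start to the nearest peak centre they ran from 63.1 kb at *Hoxd1* to 290 kb at *Hoxb1*, with a median of 196 kb, where the median of all protein-coding genes was 9.35 kb. *Hoxd1*, an anterior gene known from sensory neurons, was thus the member nearest to the mark, and *Hoxb1*, which specifies the fourth rhombomere, the member furthest from it. Of all protein-coding genes 27.7% lay 63.1 kb or more from the mark, and of those with a CpG-rich promoter 8.7%. This limit is the distance of the nearest *Hox* gene, so every *Hox* gene meets it by definition and their share is no separate result.

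The clusters differed in how far away the mark was. HoxD genes were 63.1 to 121 kb from it with a median of 113 kb, HoxC genes 144 to 208 kb with a median of 187 kb, HoxB genes 119 to 290 kb with a median of 223 kb, and HoxA genes 181 to 283 kb with a median of 236 kb. The range of HoxD overlaps with that of HoxB at its edge and with neither HoxA nor HoxC. Within HoxA the distance rose towards the posterior end except at *Hoxa3*, whose gene record starts far upstream (187 kb at *Hoxa2*, 236 kb at *Hoxa3*, 283 kb at *Hoxa13*). In HoxB it fell towards the posterior end, to 119 kb at *Hoxb13*, which stands apart from the other HoxB genes.

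**Figure D1:**
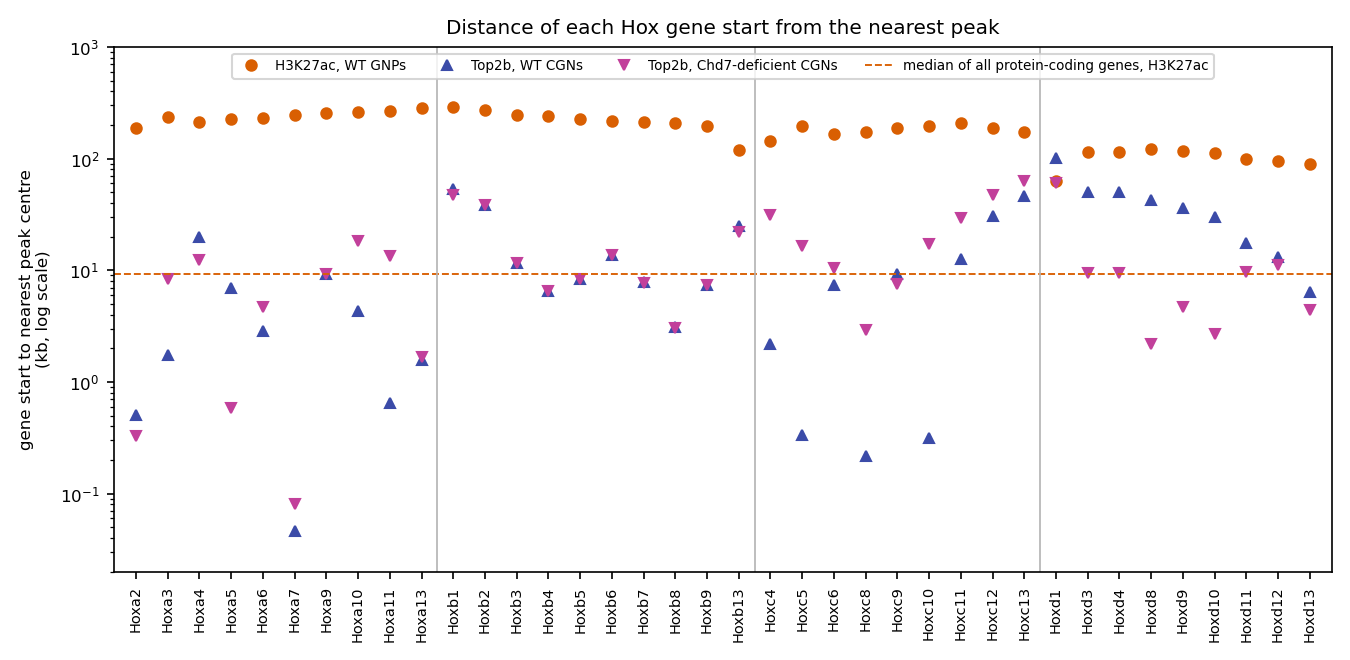
Distance in kb (log scale) from the start of each *Hox* gene described to the centre of the nearest H3K27ac peak in WT GNPs (circles) and the nearest Top2b peak in WT (upright triangles) and *Chd7*-deficient CGNs (inverted triangles). Circles lie between 63.1 and 290 kb, far above the dashed line at 9.35 kb, the H3K27ac median of all protein-coding genes, while Top2b reaches down to 0.046 kb at *Hoxa7*.

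The stretch without H3K27ac around each cluster reached well beyond it on both sides. Around HoxA it spanned 660.9 kb (chr6:51978894-52639763), around HoxB 713.3 kb (chr11:96075719-96789022), around HoxC 415.2 kb (chr15:102747784-103162956) and around HoxD 246.2 kb (chr2:74579537-74825765). Such lengths are not rare, since gaps of this kind ranked 643rd, 573rd, 1213th and 2294th by length among 31374 gaps between neighbouring peaks. Ranked by the number of CpG-rich starts inside, the HoxA gap with 7 was 4th, the HoxB and HoxC gaps with 6 each shared the next place, and the HoxD gap with 3 was 23rd, tied among 72. All 6 of the CpG-rich starts in the HoxC gap belonged to *Hox* genes, whereas the HoxA gap also held *Skap2* and the HoxB gap *Skap1* and *Snx11*. The 3 gaps with more were a run of predicted genes on chromosome 14, the region of *Cdkn2a* and *Cdkn2b* on chromosome 4 and a gene-dense region on chromosome 19 around *Ppp1ca*.

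Of the 8 peaks that end these gaps, 7 lay in or at the start of a gene that is no *Hox* gene. Anterior of HoxA, 178 kb away, an intron of *Skap2* held a peak of 2646 bp with a scaled summit pileup of 109. That peak stood 19.87-fold over the local background and held within it a Chd7 peak 4.30-fold over background. *Skap2* encodes an adaptor of immune cell signalling. Posterior of HoxA the next peak was 379 kb away at the start of *Hibadh*, a gene of valine breakdown, at 5.65-fold. For HoxB the nearest peaks were at the starts of *Atp5g1*, an ATP synthase subunit, 119 kb beyond the posterior end at 6.39-fold, and of *Cbx1*, which encodes the heterochromatin protein HP1β, 421 kb beyond the anterior end at 12.95-fold. The *Cbx1* peak and the *Skap2* peak were several times stronger than the median H3K27ac peak of 4.35-fold.

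HoxC was bounded by an intergenic peak 175 kb beyond its posterior end at 11.51-fold and by a weak peak in *Smug1*, a DNA repair gene, 126 kb beyond its anterior end at 3.18-fold. HoxD had the closest borders. *Mtx2* at its anterior side carried H3K27ac at 6.87-fold and a scaled pileup of 47.1. The whole 475 bp of a Chd7 peak at 4.04-fold lay inside the acetylated interval, 61 kb from the cluster. At its posterior side the start of *Lnpk*, an endoplasmic reticulum gene, carried a weak peak at 2.55-fold, 88.9 kb from the cluster. The *Lnpk* peak was below the median of all H3K27ac peaks and the *Mtx2* peak above it.

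At greater distance the H3K27ac density differed between the clusters. From 50 to 500 kb either side of the 4 clusters there were 77 peaks, 2.14 per 100 kb, whereas chromosomes 1 to 19, X and Y held 1.15 per 100 kb as a whole. By cluster, 38 peaks lay within 500 kb of HoxC, 20 of HoxA, 15 of HoxB and 4 of HoxD, so HoxD had the closest peak and the fewest peaks. Per 100 kb from 50 to 500 kb this made 4.22 at HoxC, 2.22 at HoxA, 1.67 at HoxB and 0.444 at HoxD, the last below the average of the chromosomes. The 491.8 kb inside the clusters and the 400 kb of flanks beside them held 0. Repeat-masked bases made up 13.4% of HoxA, 24.6% of HoxB, 15.9% of HoxC and 14.4% of HoxD, with 0 unknown bases. Top2b peaks, from CGNs and another peak caller, lay inside every cluster in at least 1 genotype, with 0 inside HoxD in WT. How well reads of the GNP libraries map in the clusters was not tested. Peak names in each of the 3 GNP tables ran from 1 to the last row with 0 numbers missing, so no row between them is missing.

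**Figure D2:**
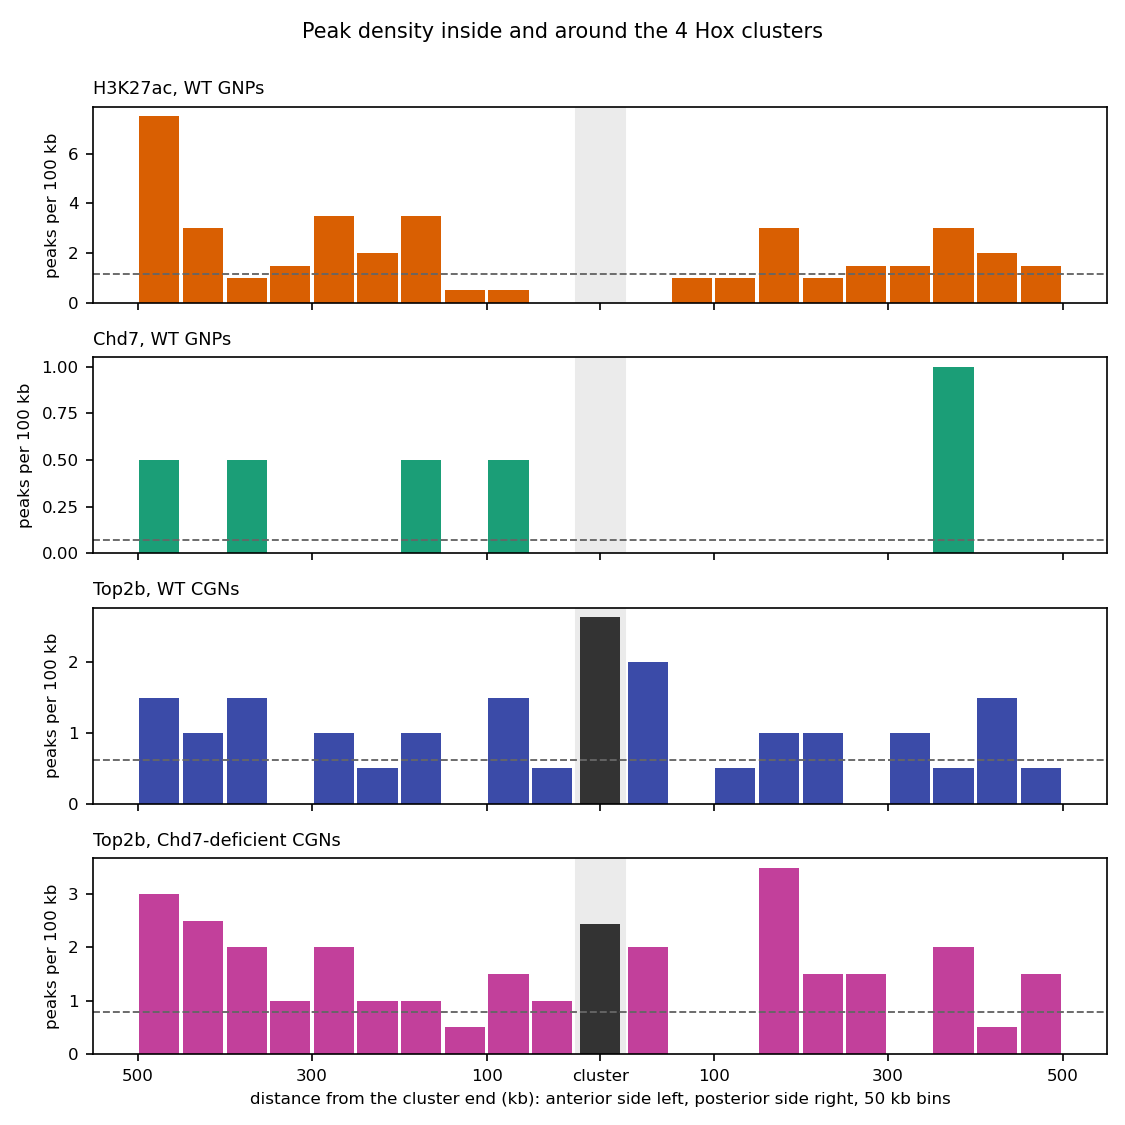
Peaks per 100 kb in 50 kb bins to 500 kb beyond the anterior (left) and posterior (right) ends summed over the 4 clusters, with the clusters themselves as the middle bar and the average of chromosomes 1 to 19, X and Y as a dashed line. The middle and the nearest bins are empty for H3K27ac and Chd7 in GNPs, whereas Top2b in CGNs stands at 2.64 peaks per 100 kb inside the clusters in WT and 2.44 in *Chd7*-deficient cells.

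Chd7 itself was not called at any *Hox* gene. Counting peak centres over the gene, its upstream 5 kb and its downstream 1 kb, 0 of 39 genes had a Chd7 peak in WT GNPs, where 6.04% of all protein-coding genes did, and 0 of 39 in *Chd7*-deficient GNPs, where 0.0638% did. The upper bound of 8.97% from 39 genes lies above both shares, so a number this small cannot set *Hox* genes apart from other genes for Chd7. Within 500 kb of the clusters 6 Chd7 peaks were called in WT GNPs and 0 in *Chd7*-deficient GNPs.

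The Chd7 peaks nearest to the clusters were those in *Skap2* (chr6:51977499-51978033, 17 fragments at the summit) and at *Mtx2* (chr2:74825891-74826365, 17 fragments), both low beside the median of 21 fragments. Beyond HoxB the nearest was in *Nfe2l1*, 456 kb from the anterior end at 4.24-fold. Beyond HoxC it was in *Atf7*, 374 kb from the posterior end at 4.19-fold and with 35 fragments. *Nfe2l1* and *Atf7* both encode leucine zipper transcription factors. From *Hox* starts the nearest Chd7 peak in WT GNPs was 63.1 kb away at *Hoxd1* and 619 kb away at the furthest member, with a median of 283 kb, where the median of all genes was 435 kb.

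**Figure D3:**
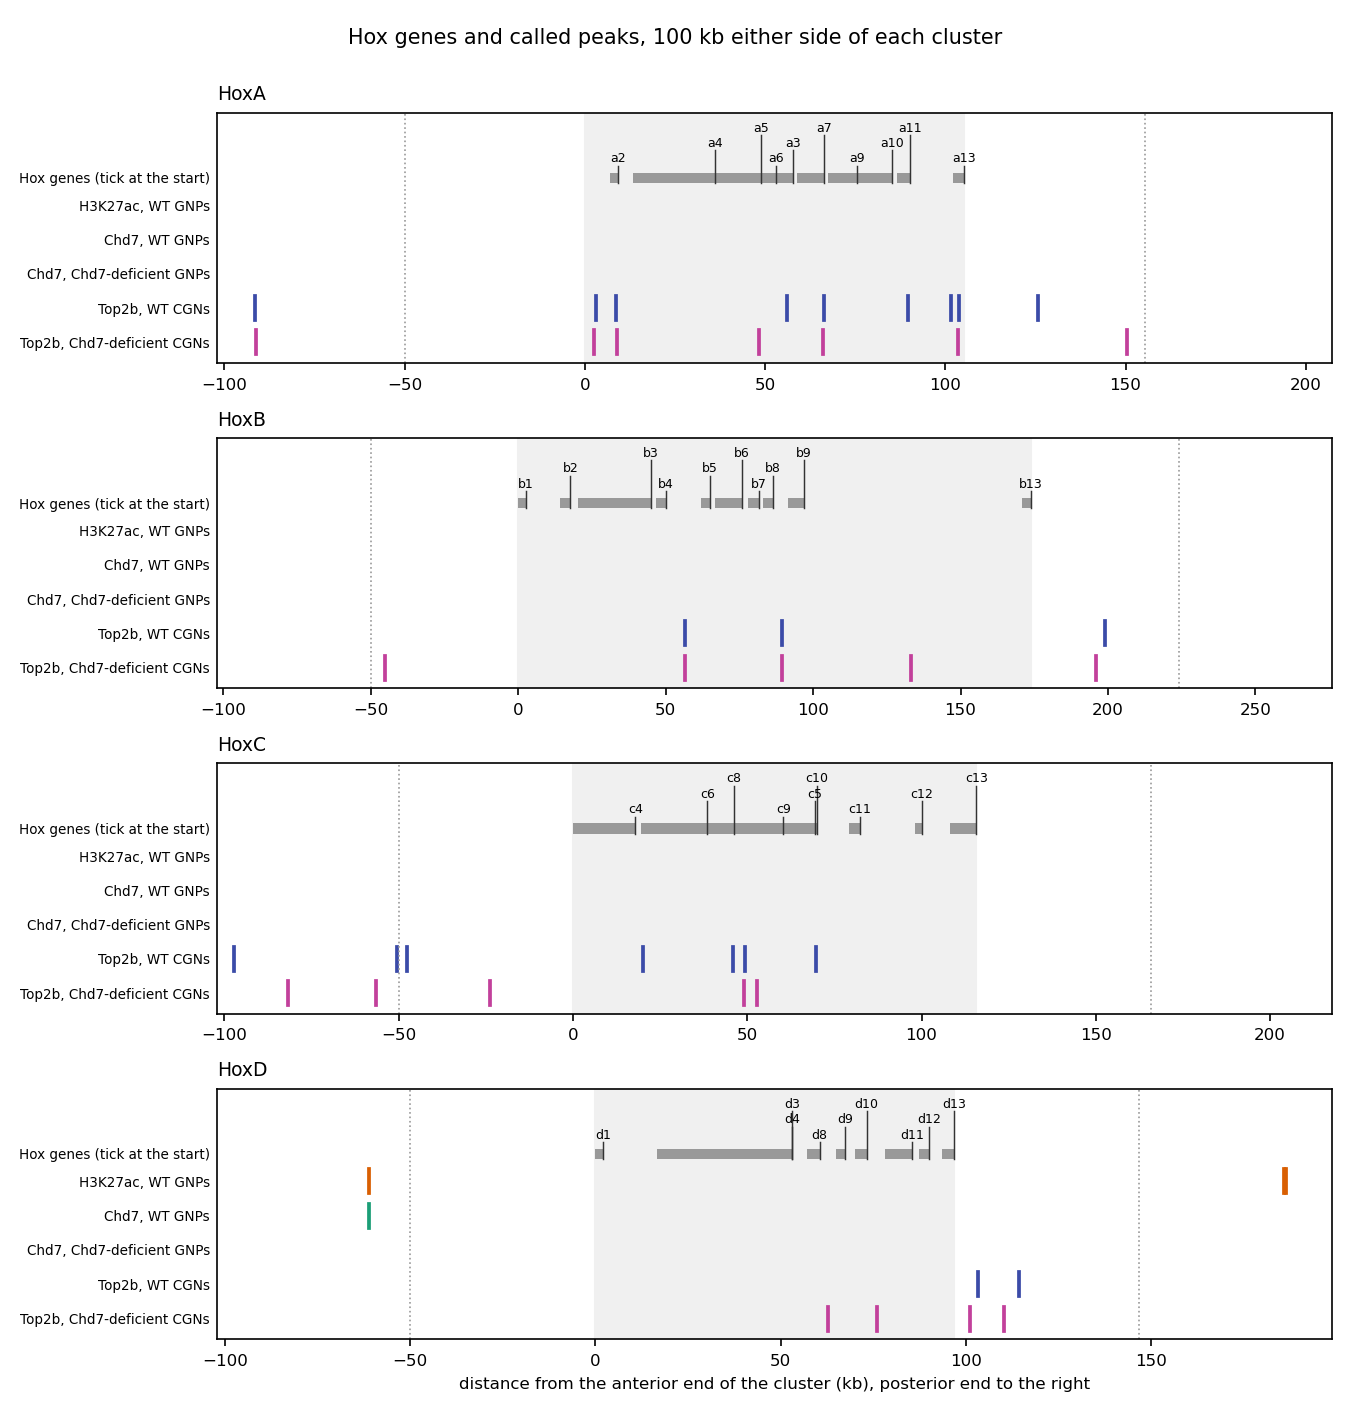
Maps of the 4 clusters from 100 kb before the anterior end to 100 kb beyond the posterior end, in kb from the anterior end. The shaded span is the cluster, grey bars are gene records with a tick at the start of each gene described, dotted lines mark 50 kb from the cluster, and coloured ticks are peak centres in each of the 5 libraries. The H3K27ac and Chd7 rows are empty inside all 4 clusters, and the closest ticks are those at *Mtx2* and *Lnpk* beside HoxD.

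Top2b peaks, in contrast, were dense in the clusters. In WT CGNs 13 lay inside them, 2.64 per 100 kb, and 5 in the flanks, 1.25 per 100 kb, against 0.778 from 50 to 500 kb away and 0.624 over the main chromosomes. In *Chd7*-deficient CGNs 12 lay inside, 2.44 per 100 kb, and 6 in the flanks, 1.5 per 100 kb, against 1.39 from 50 to 500 kb away and 0.789 over the main chromosomes. The mutant library had more peaks in all, 21505 against 17030 in WT, and the same number of 18 in the *Hox* regions. Whether the larger number comes from depth or from the cells cannot be told apart with 1 library each.

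HoxA held the most sites in both libraries. It had 7 Top2b peaks inside in WT and 5 in *Chd7*-deficient CGNs, or 6.65 and 4.75 per 100 kb. HoxC had 4 and 2, HoxB 2 and 3, and HoxD 0 and 2. In HoxD the 2 sites of the mutant library lay 2166 bp upstream of *Hoxd8* and 2715 bp upstream of *Hoxd10*, while the WT library had its 2 sites of that region beyond *Hoxd13*, at 6392 and 17660 bp.

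Starts of 7 of the 39 *Hox* genes had a Top2b peak within 1 kb in WT CGNs (17.9%, Wilson interval 8.98 to 32.7), where 9.64% of all protein-coding genes had 1. In *Chd7*-deficient CGNs 4 of 39 had a peak (10.3%, 4.06 to 23.6), where 20.3% of all genes did. The share of all genes was thus higher in the mutant library and the *Hox* count lower, and the intervals of the *Hox* shares overlap each other. Each interval also holds the share of all genes in its library, so neither count sets *Hox* genes apart. Within 5 kb the counts were 13 of 39 beside 15.4% of all genes in WT and 12 of 39 beside 26.8% in the mutant. The difference between genotypes was not tested, since each is 1 library.

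Among the anterior genes, *Hoxa2*, which patterns the hindbrain, had Top2b at the start in both libraries. The peak centre was 504 bp downstream in WT and 326 bp downstream in *Chd7*-deficient CGNs, in the coding sequence shown above, and the intervals overlapped. *Hoxa3*, of the pharyngeal arches, had a WT peak 1750 bp downstream of the start of its long record. None of the anterior genes of HoxB or HoxD (*Hoxb1*, *Hoxb2*, *Hoxb3*, *Hoxd1* and *Hoxd3*) had a Top2b peak within 5 kb of its start in either library.

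Of the central genes, *Hoxa7* had the closest peaks, with centres 46 bp downstream of the start in WT and 80 bp in *Chd7*-deficient CGNs (chr6:52221611-52222006 and chr6:52221575-52221974). *Hoxa5*, which acts in lung and axial skeleton, had a peak 581 bp downstream only in the mutant library, where its nearest WT peak was 7 kb away. That site was dense in CG, with 38 in 300 bases. *Hoxc8*, a gene of motor neuron pools, had a WT peak 216 bp downstream of the start and, in both libraries, the shared site further upstream, 2993 bp in WT and 2938 bp in the mutant. *Hoxb8* had the shared site 3116 and 3018 bp upstream, and a further shared site lay 6558 and 6576 bp upstream of *Hoxb4*, its nearest *Hox* start. A WT peak 2187 bp upstream of *Hoxc4* lay in the UTR of the *Hoxc5* record, and *Hoxa6* had its nearest peaks at 2.86 and 4.72 kb, which it shares with *Hoxa3* and *Hoxa5*.

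Of the posterior genes, *Hoxa11* and *Hoxc10* had Top2b within 1 kb of the start, both in WT CGNs. *Hoxa11*, a gene of forelimb and kidney, had a WT peak 654 bp downstream of its start, over its coding sequence and the antisense *Hoxa11os*, with 41 CG in 300 bases, the largest number among the 36 peaks. Its nearest peak in the mutant library was 13.4 kb away. *Hoxc10* had a WT peak 314 bp downstream of its start that also lies at the start of the *Hoxc5* record, 0.333 kb away, so 2 of the 7 WT genes rest on 1 peak. *Hoxa10* was 4.3 kb from the WT peak at *Hoxa11*. In the mutant library a peak fell in the coding sequence of *Hoxc9*, 6667 bp from the start of *Hoxc8*, and *Hoxd9* was 4.72 kb from a peak, that upstream of *Hoxd8*.

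*Hoxa13*, needed for digits and genital tubercle, had the shared intron site 1583 bp downstream of the start in WT and 1692 bp in *Chd7*-deficient CGNs, and a further WT peak at 3745 bp in the noncoding *9530018H14Rik*. Beyond *Hoxd13* the mutant library had peaks 4409 and 13445 bp upstream, the latter in a UTR of *Evx2*. *Hoxc11*, *Hoxc12* and *Hoxc13*, at the posterior end of HoxC, were 12.7 to 62.8 kb from Top2b in the 2 libraries.

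Some positions were shared between the genotypes. Of 18 peaks in the *Hox* regions, 6 overlapped a peak of the other library in either direction (33.3%, Wilson interval 16.3 to 56.3), beside 16.8% of all WT peaks and 13.3% of all mutant peaks. The WT share lies just inside that interval and the mutant share just below it, and neighbouring peaks of 1 cluster are not independent. The centres of the shared sites were 18 bp apart at *Hoxb4*, 34 bp at *Hoxa7*, 55 bp at *Hoxc8*, 98 bp at *Hoxb8*, 109 bp at *Hoxa13* and 178 bp at *Hoxa2*, with peak widths of 396 bp in WT and 400 bp in the mutant. 3 of the 6 are in HoxA, 2 in HoxB, 1 in HoxC and 0 in HoxD.

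None of the 36 *Hox* peaks overlapped H3K27ac or Chd7 of WT GNPs. This follows from the 0 H3K27ac and 0 Chd7 peaks in these regions and is no separate result. The acetylation was measured in progenitors and Top2b after 48 h of culture, so the 2 readouts are not of the same cells.

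Top2b sites of the *Hox* regions were richer in CG than Top2b sites elsewhere. In 300 bases around the peak centre they had a median of 10.5 CG dinucleotides in WT (1 to 41) and 12 in *Chd7*-deficient CGNs (3 to 38), where all Top2b peaks had medians of 4 and 5. *Hoxa11* and *Hoxa5* were the top of each range, and *Hoxa2* with 29 and 25 was high in both. Peaks were not matched for distance to a gene start or for the CG content around them. The comparison therefore cannot separate the Top2b sites from the sequence they lie in. The motif CAGCTG, an E-box bound by basic helix-loop-helix factors, was found in 7 of 18 WT *Hox* sites (38.9%) beside 19.2% of all WT sites, and in 3 of 18 mutant sites (16.7%) beside 19.8%. CAGATG, another E-box, was found in 3 of 18 WT sites (16.7%) beside 25.6% and in 2 of 18 mutant sites (11.1%) beside 25.1%. TAATTA, a core bound by many homeodomain proteins, was in 0 of 18 WT sites and 1 of 18 mutant sites beside 4.61% and 4.82%.

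**Figure D4:**
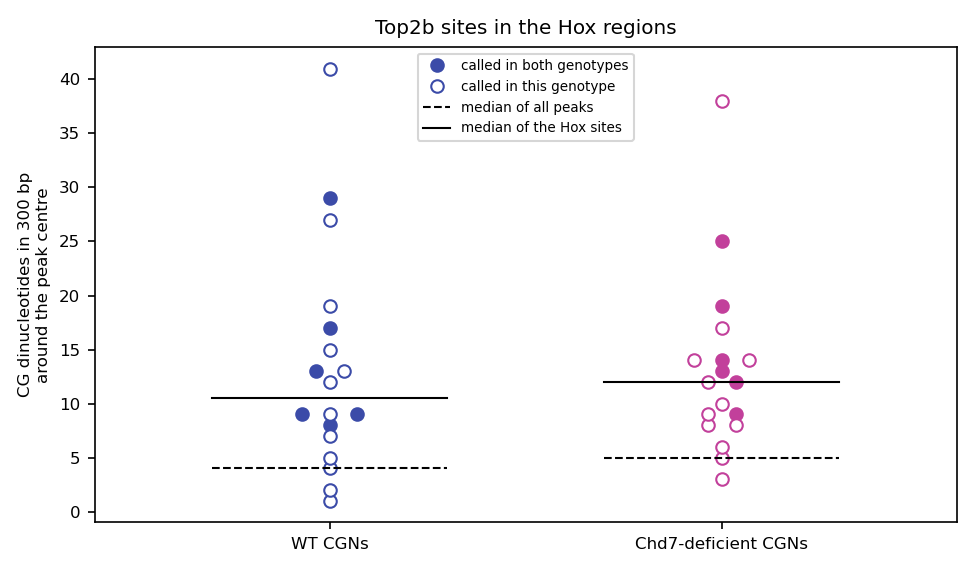
CG dinucleotides in 300 bases around the centre of each of the 18 Top2b sites of the *Hox* regions in WT and in *Chd7*-deficient CGNs, filled where a peak was called in both genotypes, with the median of the *Hox* sites (solid line) and of all Top2b peaks of the library (dashed line). The solid lines stand at 10.5 and 12, the dashed ones at 4 and 5.

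Among CpG-rich promoters Top2b could be set beside H3K27ac. With H3K27ac in GNPs, 16.8% of the 6831 starts had Top2b within 1 kb in WT CGNs and 40% in *Chd7*-deficient CGNs. Without H3K27ac, 14.2% and 22.1% of 2225 starts did. The 19 CpG-rich *Hox* genes belong to the second group, and 4 of 19 had Top2b in WT (21.1%, 8.51 to 43.3) and 2 of 19 in the mutant (10.5%, 2.94 to 31.4), intervals that hold the shares of their group. *Hoxa11*, *Hoxc8* and *Hoxc10* were among those in WT and *Hoxa5* among those in the mutant.

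Genes that work with Hox proteins or act on the clusters did carry the mark in the same library. Of 9 genes for the TALE homeodomain cofactors that bind DNA together with Hox proteins, 8 had H3K27ac at the start, with a summed fold enrichment of 51.91 at *Pknox1*, 33.76 at *Meis1* and 18.04 at *Pbx3*, and 0 peaks at *Meis2*. *Meis1*, *Pbx3*, *Pknox2* and *Pbx2* also had a Chd7 peak in WT GNPs. Of 16 Polycomb and trithorax genes 15 had the mark, the most at *Kdm6b* (24.07), *Kmt2a* (21.37) and *Kdm6a* (20.01), which encode the H3K27 demethylases JMJD3 and UTX and the H3K4 methyltransferase MLL1. *Kmt2a*, *Cbx8* and *Jarid2* had Chd7, and *Cbx7* had no H3K27ac at the start of its record. Of all protein-coding genes 42.9% had H3K27ac at the start and 6.04% had Chd7, and of those with CpG-rich promoters 75.4% had H3K27ac. Promoters were CpG-rich at 4 of the 9 cofactor genes and 13 of the 16 Polycomb and trithorax genes. The Wilson intervals of the H3K27ac shares, 56.5 to 98 and 71.7 to 98.9, both hold 75.4%.

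Upstream regulators of hindbrain *Hox* genes were also without the mark at the start of the gene record. Other transcript starts were not examined for the gene lists. The 14 such genes included *Egr2* of the rhombomeres, the *Cdx* genes and the genes of retinoic acid synthesis, breakdown and reception. Of these, 0 had H3K27ac at the start (Wilson interval up to 21.5%), beside 42.9% of all protein-coding genes. Chd7 was found at 0 of them, with the same upper bound. That bound lies above the 6.04% of all genes, so the Chd7 count does not set them apart. The 5 protein-coding genes inside the clusters or within 50 kb that are no *Hox* genes (*Evx2*, *Ttll6*, *5730596B20Rik* and the read-through records *Gm28308* and *Gm28230*) had 0 peaks of H3K27ac, Chd7 or Top2b at the start. With 5 genes the upper bound is 43.4%, above the share of all genes for each readout, so these counts do not set them apart. *Evx2*, a homeobox gene beside *Hoxd13*, was 80.2 kb and *Ttll6*, beside *Hoxb13*, 58.5 kb from the nearest H3K27ac peak.

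Other homeobox and paired box families differed among themselves. Of 59 genes of 13 families, among them Dlx, Lhx, Irx, Otx, En, Nkx2 and Pax, 12 had H3K27ac at the start (20.3%, Wilson interval 12 to 32.3), an interval that lies above that of the *Hox* genes and below 42.9%. The highest summed fold enrichments were 29.03 at *Pax6*, which granule progenitors are known to express, 10.99 at *En2*, of the midbrain and first rhombomere, and 10.64 at *Lhx1*. All 12 genes belonged to the Lhx, Irx, Otx, En and Pax families, and the other 8 families, with 32 genes, had 0 peaks at their starts. None of the 59 had Chd7, with an upper bound of 6.11% that is above the 6.04% of all genes, so this count does not set them apart.

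**Figure D5:**
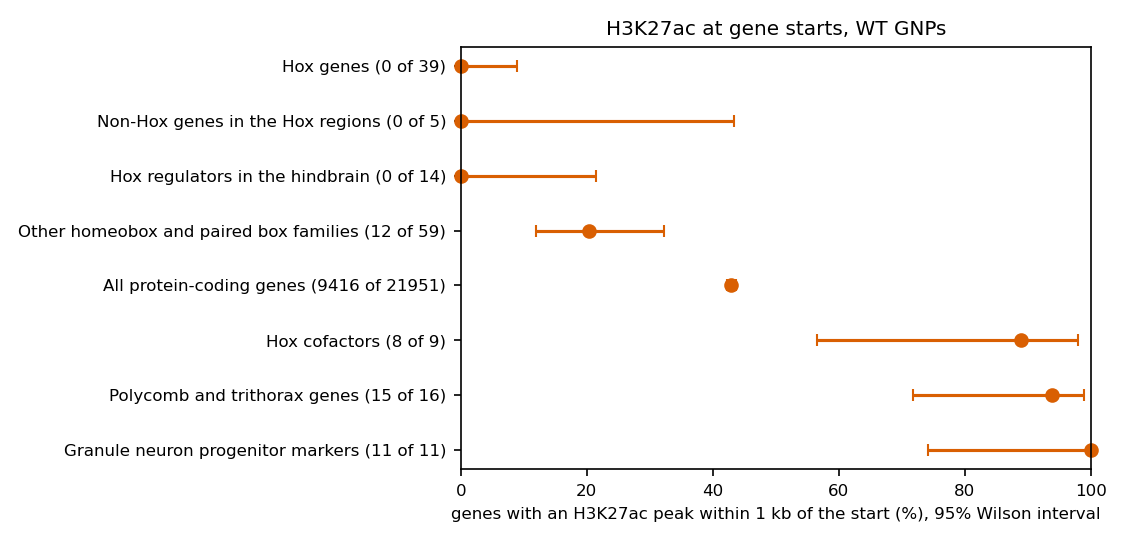
Share of genes with an H3K27ac peak within 1 kb of the start in WT GNPs, with 95% Wilson intervals, for *Hox* genes, other gene lists and all protein-coding genes. *Hox* genes, their non-*Hox* neighbours and their hindbrain regulators are at 0, other homeobox and paired box families at 20.3% and all genes at 42.9%, while cofactors and Polycomb and trithorax genes are at 88.9% and 93.8%.

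Markers of cerebellar cell types were set beside the label of the cells. They were chosen with earlier results of these data known, so they are no independent check of it. Of all protein-coding genes 42.9% had H3K27ac at the start and 6.04% had Chd7. Among CpG-rich promoters 75.4% had H3K27ac, and 7 of the 11 granule progenitor markers have such a promoter. All 11 markers of granule progenitors had H3K27ac at the start, from 50.47-fold in sum at *Zic1*, 34.76 at *Neurod1* and 33.76 at *Meis1* to 2.62 at *Ccnd2*, and *Neurod1*, *Meis1*, *Zic2*, *Mycn* and *Gli2* had Chd7. Of 17 markers of other cerebellar cells 3 had it, *Foxp2* of Purkinje cells (also with Chd7), *Pax2* of interneuron progenitors and *Slc1a3* of glia, and the markers of oligodendrocytes, microglia and endothelium had 0. *Hox* genes in a small share of cells and a weak mark in all cells cannot be told apart in a library from many cells. The lowest scaled summit pileup among called H3K27ac peaks was 12.2, and called peaks give no value for acetylation at *Hox* genes too weak to be called.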

How the data were processed

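Per the labels and the study's methods, the authors trimmed reads with Trim Galore, mapped them to mm10 with Bowtie 1.0.0 keeping single alignments, and called peaks per library, with MACS2 at default parameters in GNPs and with HOMER in CGNs (tools from the submitters' processing notes). The deposited MACS2 tables give a pileup signal, the fragment coverage at the summit, scaled in the H3K27ac library. Their deposited fold and −log10 columns had lost the decimal point and were treated as a score, divided by 100000. They were checked against p-values recomputed for all Chd7 peaks and for the 1591 of 31400 H3K27ac peaks with a whole-number pileup. Which control was used is not given in the sources used here. Top2b tables hold positions only.

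Members and gene lists were chosen with earlier results of these data known. All *Hox* genes were counted, with single values of some items not reported here, and those with a peak in the gene or within 5 kb of the start were named, as were neighbours within 50 kb and, of each list, genes with Chd7 and the 3 with the highest summed fold. Peaks overlapped at 1 bp or more. Shares have 95% Wilson intervals for counting error only. No tests were made, as each group is 1 library. Of 7 motifs, searched on both strands, 3 are reported with their letters, and of the others (GACCACCCA for GLI, TGATTNAT for PBX and HOX, the NFI palindrome and a CTCF core) only TGATTNAT occurred at *Hox* sites, at 1 of them. Counting was tested on simulated data, where 39 of 39 peaks planted at *Hox* starts were found. The software was matplotlib 3.10.9, pysam 0.24.0, scipy 1.17.1, pandas 2.3.3 and numpy 2.4.6 under Python 3.11.15. Alternatives changed windows, flanks, the start used and the q-value threshold.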

Additional observations from a re-analysis of the deposited data

How the results depend on the processing

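Of 41 alternative values for 14 results, 20 only narrow a count that is already 0 and could not move. Of the 21 others 17 were the same or within 1.5 times, several of them because the 0 peaks of the regions had fixed them. The remaining 4 moved, each with flanks of 100 kb in place of 50 kb. The H3K27ac peaks of the regions then numbered 3, all 3 beside HoxD (at *Lnpk* and *Mtx2*), their density in the flanks became 0.375 per 100 kb, and WT Chd7 peaks numbered 1, at *Mtx2*. Counts at *Hox* starts under wider windows and other transcript starts were fixed at 0 by the 0 called peaks in the regions. They give no separate support. No paired analysis was possible because every group has a single library and no test was made. Leaving out a replicate was not possible for the same reason. Precision is limited by read depth, which is not in the tables, and by peak calling, which gives no value for weak signal.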

Other observations

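The clusters also hold microRNA genes, and none had H3K27ac nearby in WT GNPs. RefSeq (GRCm38.p6) places 6 of them there, from the families of miR-10, miR-196 and miR-615, which are known to target *Hox* messages. The mature strands that share a seed (bases 2 to 8, in capitals) across clusters are shown.
mmu-miR-10a-5p, HoxB: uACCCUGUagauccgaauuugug
mmu-miR-10b-5p, HoxD: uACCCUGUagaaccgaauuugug
mmu-miR-196a-5p, HoxB and HoxC: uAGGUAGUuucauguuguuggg
mmu-miR-196b-5p, HoxA: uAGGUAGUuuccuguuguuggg
The nearest H3K27ac peak was 100 kb from miR-10b, 242 kb from miR-10a, 190 kb from both copies of miR-196a, 253 kb from miR-196b and 148 kb from miR-615. The nearest Top2b peak was 1.82 kb from miR-615-5p in WT and 27.3 kb in *Chd7*-deficient CGNs, 5.48 and 5.5 kb from miR-10a-5p, and 64.2 and 23.6 kb from miR-10b-5p.

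Across the 59 genes of other homeobox and paired box families, Top2b at the start was counted at 15 genes in WT (25.4%) and 8 in *Chd7*-deficient CGNs (13.6%), while the share of all protein-coding genes went from 9.64% to 20.3%. *En1*, *En2*, *Emx1* and *Emx2* had it in WT and not in the mutant library. The *Hox* counts of 7 and 4 went the same way, and with 1 library per genotype the difference was not tested.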
